A study of Rattus norvegicus with 4 samples.

Results

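The 54 genes described here are the protein-coding genes whose levels differed most between the glomeruli of 4 rats given Adriamycin. They were chosen by the measured values themselves: the standard deviation (SD, n - 1) of the deposited log2 values over the 4 animals had to exceed 1. This held for 59 of 12778 protein-coding genes, or 0.462%, and 5 of these (Slc4a5, Zbtb16, Ifit1, Sele and Kap) are left out here by name. Because the spread chose the members, their SDs are given as a description and were not tested. The highest and the lowest animal of a member differed by between 1.96 and 4.65 on the log2 scale, with a median of 2.70.

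The animals were male Wistar rats, an outbred strain, and all 4 had the same treatment, an intravenous injection of Adriamycin (ADR, doxorubicin), an anthracycline that injures podocytes and causes nephrotic syndrome in rodents. Glomeruli were isolated by sieving, and polyadenylated RNA was sequenced. No control group was analysed here, so no value below shows an effect of ADR. Which of the harvest days an animal belonged to is not stated, and the library names are A30 for replicate 1 and A51, A52 and A53 for replicates 2 to 4, with no statement that the numbers mark a batch. Harvest day, batch and animal therefore cannot be told apart. Replicate numbers, given by accession, carry no order. The libraries held between 13566962 and 16207027 reads in the genes used, and 1 read was worth between 0.0617 and 0.0737 CPM, the reads of a gene scaled to a common library total. CPM is not corrected for gene length, so levels are compared mainly between animals. Where genes are set against each other, the comparison is one of CPM only. The defining podocyte, endothelial and mesangial genes had values in 21 of 21, 12 of 13 and 11 of 11 cases. The median deviations of a gene from its own mean in replicates 1 to 4 were -0.18, 0.10, 0.19 and -0.11 (log2) for the endothelial list and 0.06, -0.34, 0.01 and 0.23 for the mesangial list.

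The glomerulus is a capillary tuft whose filter is built by podocytes, fenestrated endothelial cells and the basement membrane between them, with mesangial cells as its core. Podocytes are postmitotic cells with branched processes, and they share part of their gene programme, including vesicle and cytoskeletal genes, with neurons. Glomeruli separated by sieving can carry fragments of proximal tubule and blood leukocytes held in the capillaries, so a bulk measurement mixes these sources. In such bulk samples, fewer cells of a type and less RNA per cell cannot be told apart.

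Most members had lower CPM than the median coding gene. Their mean level had a median of 2.25 log2 CPM, against 4.92 for all protein-coding genes, and 47 of 54 lay under that coding median. The share of coding genes with an SD above 1 was 2.79% below a mean of 2 log2 CPM, 0.679% between 2 and 4, and 0.15% from 4 upwards; these bins held 23, 19 and 12 members. Averaged over samples, 16 members had under 50 reads. The SD that counting alone would give had a median of 0.205 over the members, and the observed SD was between 3.07 and 36.1 times as large, with a median of 7.55. The counting SD was at most 0.504 and members had to exceed an SD of 1. An observed SD above the counting SD was therefore fixed by the choice and is no separate evidence. A deposited value of at least 1 in each animal was found for 23 members. The others lay under it in at least 1 animal; the authors' filter on low genes is not given in the sources used here, and how many members it kept through their high animals alone was not tested. Spread between animals and spread between library preparations cannot be told apart here.

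**Figure D1:**
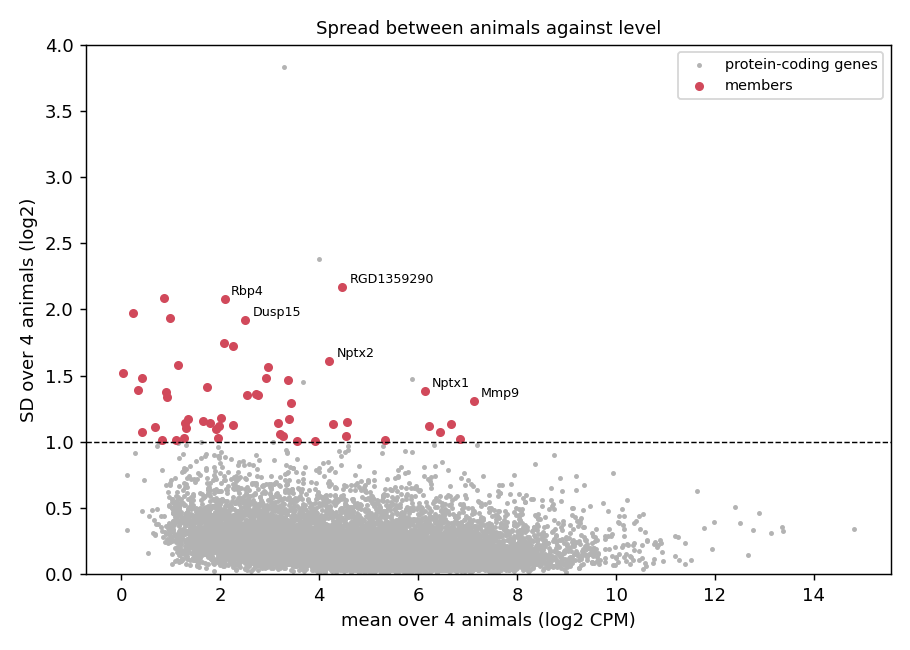
SD over 4 animals (log2, vertical axis) against mean level over the same animals (log2 CPM, horizontal axis) for 12778 protein-coding genes (grey) and the 54 members (red); the dashed line is the SD of 1 that chose them. Members span means from 0.03 to 7.12 log2 CPM, and the unlabelled grey points above the line are the genes left out by name.

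At the limit, the last members inside included Mamdc2 (SD 1.01) and Apba1 (1.00). The first genes outside were Cyp27b1, the enzyme that makes active vitamin D (0.999), and Col2a1, a fibrillar collagen chain (0.998). No step in the SD separates the members from the genes below them.

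For each gene the 4 values were sorted and divided at the widest gap, and the animals above the gap are called high. Replicates 1, 3 and 4 were high for 11 members, so that replicate 2 alone was low; this split was found for 14.0% of all protein-coding genes. Replicates 2, 3 and 4 were high for 10 members (17.4% of coding genes). Replicates 1 and 4 were high for 7 (7.36%) and replicates 3 and 4 for 6 (5.44%). Replicate 1 alone was high for 4 (9.15%), replicate 3 alone for 4 (9.61%), and replicates 1 and 2 for 4 (2.98%). The rest were 3 members high in replicates 1, 2 and 4 (7.37%), 2 in replicate 4 alone (5.55%), and 1 each in replicates 1, 2 and 3 (3.66%), 1 and 3 (2.65%) and 2 and 3 (6.71%). No member was high in replicate 2 alone (5.88% of coding genes) or in replicates 2 and 4 (2.26%). These counts depend on the definition of high. With animals above the gene's mean called high, replicates 1, 3 and 4 were high for 7 members (6.99% of coding genes), replicates 2, 3 and 4 for 4 (9.54%), replicates 1 and 4 for 13 (16.7%) and replicates 3 and 4 for 13 (12.3%). By that definition replicate 1 alone was high for 1 member (4.02%), replicate 3 alone for 1 (4.45%), and replicates 1 and 2 for 4 (7.25%). The shares are given as a background, and members and coding genes share the same 4 samples.

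**Figure D2:**
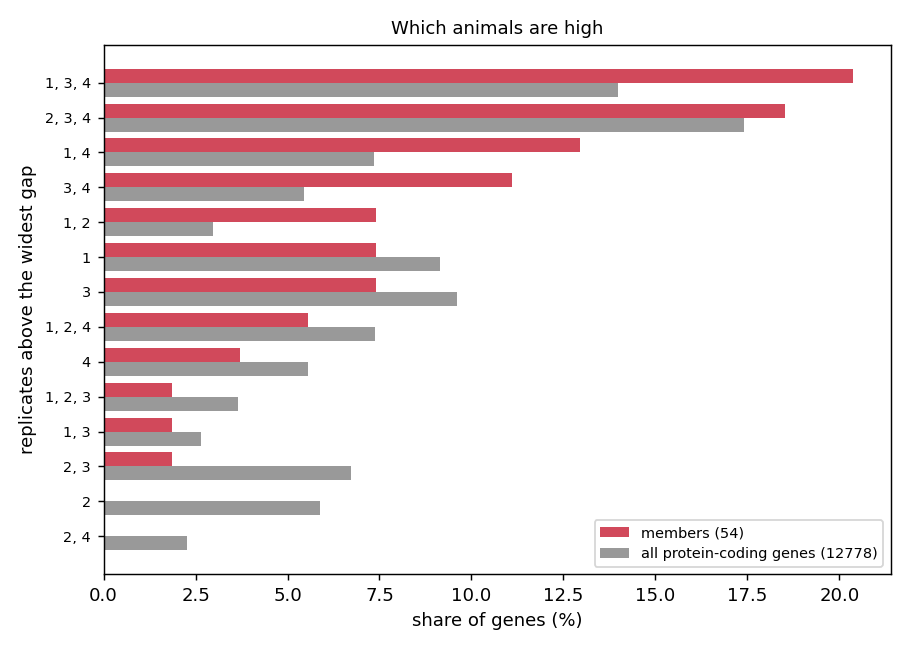
Share of genes (%, horizontal axis) with each set of replicates above the widest gap (vertical axis), for the 54 members (red) and all 12778 protein-coding genes (grey). The sets 1, 3, 4 and 2, 3, 4 hold the most members, 11 and 10, and the set 2 and the set 2, 4 hold none.

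**Figure D3:**
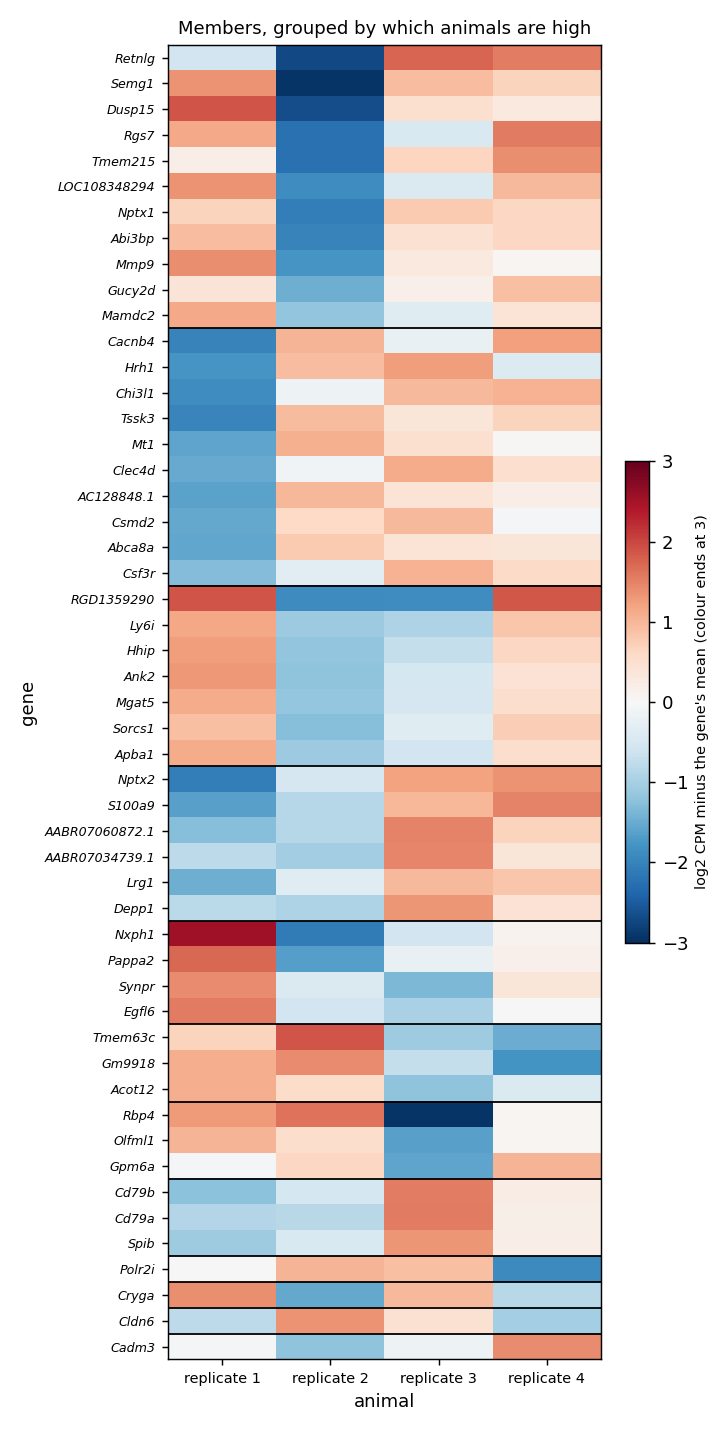
Level of each member in each animal as log2 CPM minus the gene's own mean (red above, blue below; genes in rows, animals in columns), with black lines between the sets of high animals and genes ordered by SD within a set. It shows 51 of the 54 members, and Cd79a, Cd79b and Spib are high in replicate 3 alone.

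The members Cd79a, Cd79b and Spib, best known from B lymphocytes, had the same order of animals, replicate 3 first, then 4, 2 and 1. This order was found for 8 members in all, Clec4d, Csf3r, Lrg1 and AABR07060872.1 among them, and for 6.91% of coding genes. Cd79a and Cd79b encode the signalling chains of the B cell receptor, and Spib encodes an ETS-family transcription factor of B cells and plasmacytoid dendritic cells. Cd79a (ENSRNOG00000020125) had 0.91, 0.96, 3.34 and 1.96 log2 CPM in replicates 1 to 4, from 25, 31, 155 and 59 reads. Cd79b (ENSRNOG00000011917) had 0.79, 1.49, 3.55 and 2.23 log2 CPM. Replicate 3 stood at the top for both chains, and replicate 4 came next. Spib had 0.19, 0.81, 2.59 and 1.48 log2 CPM. The range within each of these genes was between 2.40 and 2.76 (log2).

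Among the fixed list of B and plasma cell genes, 4 of 8 had values, among them Cd79a, Cd79b and Ighm, the heavy chain of immunoglobulin M. Ms4a1, Igkc, Jchain and Mzb1 had no value in the table used here. Ighm is no member, with an SD of 0.97, and had 4.33, 4.84, 6.59 and 5.43 log2 CPM, again highest in replicate 3 and lowest in replicate 1. The summed level of the 4 genes was 24.6, 35.1, 123 and 53.8 CPM in replicates 1 to 4. The median deviation from a gene's own mean was -1.04, -0.49, 1.44 and 0.15 (log2), against -0.02, -0.02, 0.03 and 0.02 over all protein-coding genes. As 3 of the 4 genes are members, chosen for a wide spread of these values, a large deviation of the list was fixed by that choice and is no separate evidence.

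In a group of 6 members known from neutrophils and other myeloid cells, replicates 3 and 4 had the 2 highest values. This held for 16 of the 54 members and for 19.6% of coding genes. The group was put together after the values were seen. Mmp9, a member that neutrophils can also make, was placed with the matrix proteins. It was highest in replicate 1 and lowest in replicate 2. By the split at the widest gap, S100a9 and Lrg1 of the 6 were high in replicates 3 and 4 alone, and the other 4 in replicate 1 or 2 as well. S100a9 encodes a subunit of calprotectin, an abundant cytosolic protein of neutrophils, and had 1.30, 2.06, 3.91 and 4.42 log2 CPM, from 33, 67, 231 and 326 reads. Csf3r, the receptor for granulocyte colony-stimulating factor, had 1.95, 2.94, 4.31 and 3.84 log2 CPM. Clec4d, a C-type lectin of myeloid cells, had 0.73, 2.14, 3.36 and 2.76 log2 CPM. Replicate 1 was lowest and replicates 3 and 4 were the upper pair for each of these.

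Chi3l1, a chitinase-like secreted glycoprotein, had 0.85, 2.56, 3.69 and 3.77 log2 CPM. Lrg1, a secreted leucine-rich glycoprotein made by neutrophils but also by liver and activated endothelium, had 1.71, 2.82, 4.16 and 4.02 log2 CPM. Retnlg, a resistin-like cytokine of bone marrow myeloid cells, had 0.28, -1.85, 2.61 and 2.38 log2 CPM, from 16, 4, 93 and 79 reads. Retnlg differed from the other 5 in that replicate 2 was its lowest animal. It had the highest SD of the group, 2.08, and its low end rests on 4 reads.

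Of the 7 genes of the fixed neutrophil list, 3 had values (S100a9, Csf3r and Il1b), with a summed level of 9.51, 16.6, 47.6 and 45.2 CPM. As S100a9 and Csf3r are members, a large difference of the sum was fixed by their choice. The one that is no member, Il1b (interleukin 1 beta), had 1.71, 2.28, 3.68 and 3.25 log2 CPM with an SD of 0.90 and the order 3, 4, 2, 1. Its upper pair was replicates 3 and 4.

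Other leukocyte lists held no member. The T and NK cell list had values for 3 of 10 genes, summing to 13.6, 24.2, 31.7 and 20.9 CPM, and all 3 were lowest in replicate 1 and highest in replicate 3: Cd3e, a chain of the T cell receptor complex, had 0.28, 0.60, 1.75 and 1.34 log2 CPM, and Prf1, perforin, had 3.15, 3.85, 4.22 and 3.51. The macrophage and dendritic list, with 9 of 11 genes, had a median SD of 0.29 and median deviations of -0.15, 0.19, 0.00 and -0.15. Its most uneven gene, Lyz2 (lysozyme, also present in neutrophils), had 7.80, 8.42, 8.71 and 8.80 log2 CPM, and its least uneven, Cd68, had 4.15, 4.50, 4.31 and 4.26. Other genes of this list differed from Lyz2. C1qa, a chain of complement C1q, had 6.17, 6.39, 5.58 and 5.76, and replicates 3 and 4 were the lower pair for C1qa, C1qb, C1qc and Cd74. Replicates 2 and 3 were the upper pair for Csf1r, Adgre1, Mrc1 and Cd68. Over all protein-coding genes, replicate 3 was highest and replicate 1 lowest for 16.3%; among the members this held for 10 of 54. Replicate 1 was the lowest animal for 18 members (35.0% of coding genes) and replicate 3 the highest for 14 (29.7%).

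**Figure D4:**
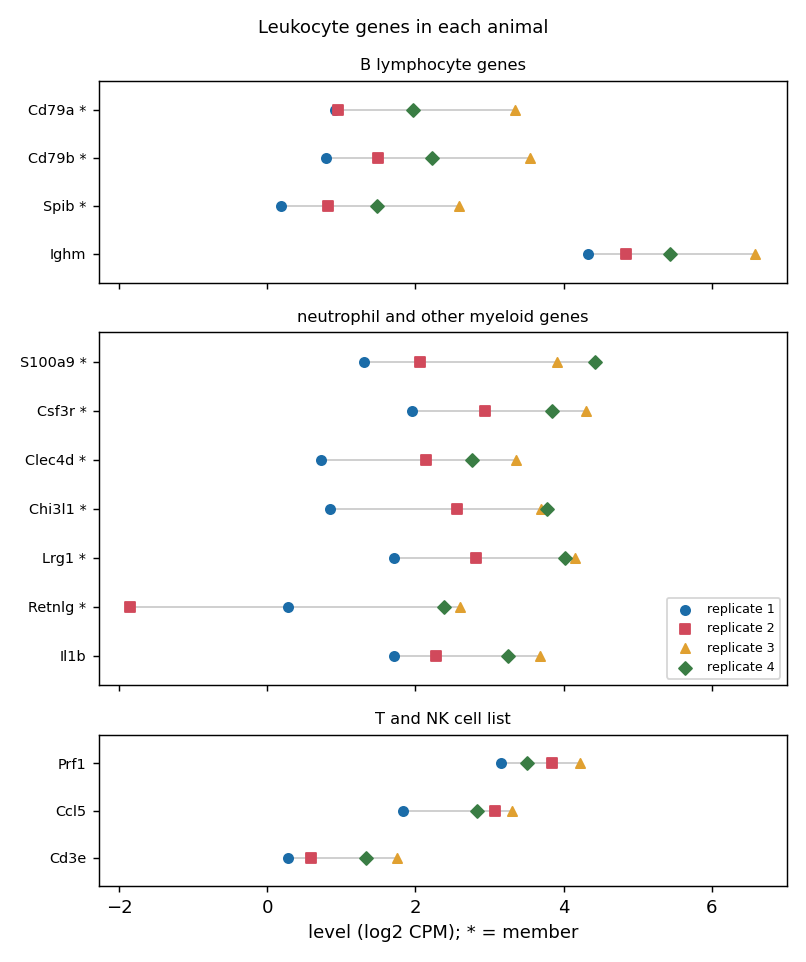
Level in each animal (log2 CPM, horizontal axis; 1 marker per replicate) for B lymphocyte genes, myeloid genes and the measured genes of the T and NK cell list; an asterisk marks a member. Replicate 3 has the highest value for every B lymphocyte gene shown, and replicates 3 and 4 are the upper pair for every myeloid gene shown. Mmp9, which neutrophils can also make and which was highest in replicate 1, is not shown.

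The commonest pair of ends among the members was another one, replicate 1 highest and replicate 2 lowest, which held for 16 of 54 members and for 13.4% of all protein-coding genes. The order 1, 4, 3, 2 was found for 12 of these 16 and for 9.49% of coding genes, so it made up most of this pair of ends in both. Replicate 1 was highest for 21 members (27.7% of coding genes) and replicate 2 lowest for 25 (31.6%). The fixed podocyte list had the same ends in 18 of its 21 measured genes, none of them a member. Its median deviations were 0.43, -0.50, -0.07 and 0.17 (log2), its median SD was 0.39, and its summed level was 20540, 12503, 15762 and 18748 CPM in replicates 1 to 4. Magi2, a scaffold protein of the slit diaphragm and the most uneven gene of that list, had 5.55, 3.35, 4.40 and 4.99 log2 CPM (SD 0.94). Lamb2 (laminin beta 2), its least uneven, had 10.61, 10.75, 10.87 and 10.83. The part of podocyte RNA content in the members' values was not tested.

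Among the 16, Mgat5, a Golgi enzyme that starts a branch of complex N-glycans, had 7.97, 5.68, 6.35 and 7.39 log2 CPM (3403, 833, 1252 and 2549 reads). Hhip (ENSRNOG00000018268), a membrane-anchored protein that binds and sequesters hedgehog ligands, had 7.93, 5.49, 5.97 and 7.30 log2 CPM. Replicates 1 and 4 lay above replicates 2 and 3 for both. Mmp9, gelatinase B, which cleaves type IV collagen, had 8.51, 5.36, 7.42 and 7.19 log2 CPM in replicates 1 to 4, from 4961, 663, 2635 and 2220 reads. Its lowest animal was replicate 2 and its highest replicate 1. Neutrophils are one known source of Mmp9, and which cells it came from here was not tested.

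**Figure D5:**
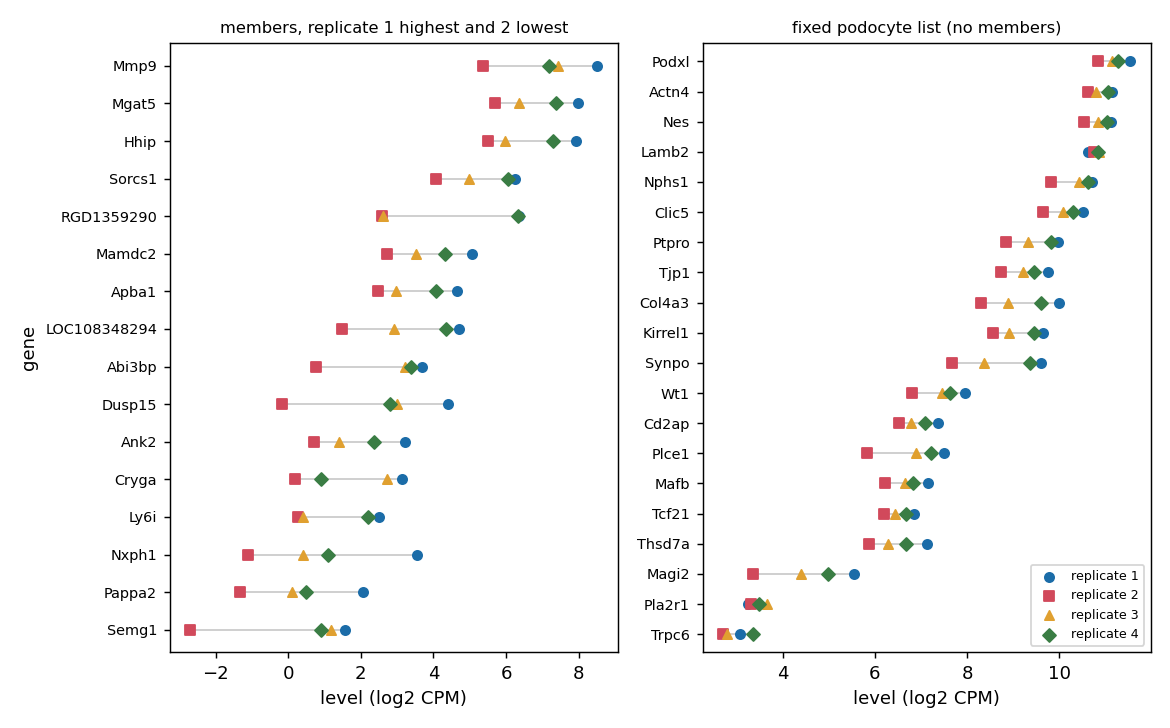
Level in each animal (log2 CPM, horizontal axes, which differ in range; 1 marker per replicate) for the 16 members with replicate 1 highest and replicate 2 lowest (left) and for 20 genes of the fixed podocyte list (right). In the genes on the right 17 have the same ends, and Lamb2, Pla2r1 and Trpc6 do not.

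A set of 12 members are best known from neurons; they did not share a single pattern: replicate 2 was lowest for 7 of the 12 (31.6% of coding genes), replicate 1 for 3 (35.0%) and replicate 3 for 2 (19.8%). Sorcs1, a sorting receptor of the VPS10 domain family, had 6.25, 4.07, 4.98 and 6.07 log2 CPM (1029, 271, 483 and 1021 reads). Apba1, an adaptor of synaptic vesicle release, had 4.66, 2.47, 2.97 and 4.08. Ank2, ankyrin B, which ties membrane proteins to spectrin, had 3.22, 0.71, 1.40 and 2.36. In these 3 genes the order was 1, 4, 3, 2, as in most of the podocyte list.

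Nxph1, a secreted ligand of neurexins, had 3.54, -1.11, 0.42 and 1.09 log2 CPM, from 157, 7, 20 and 32 reads, the widest range of any member at 4.65. Synpr, synaptoporin of synaptic vesicles, had 4.81, 2.95, 2.05 and 3.75. Both were high in replicate 1 alone. Rgs7, which ends G protein signals, had 3.38, 0.03, 1.80 and 3.81 log2 CPM, from 141, 16, 53 and 214 reads. Cadm3, a nectin-like adhesion molecule, had 0.37, -0.77, 0.27 and 1.84, and Gpm6a, a membrane glycoprotein of growth cones, had 1.22, 1.90, -0.30 and 2.29. Replicate 4 was the top animal for these last 3.

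The neuronal pentraxins Nptx1 and Nptx2 are secreted proteins that gather glutamate receptors at synapses, and the 2 genes differed in which animals were low. Nptx1 had 6.80, 4.06, 6.92 and 6.74 log2 CPM (1508, 269, 1859 and 1634 reads), so replicate 2 alone was low while the other 3 lay within a narrow band. Nptx2 had 2.13, 3.71, 5.42 and 5.55 log2 CPM (59, 211, 656 and 712 reads). Here replicate 1 was lowest and replicates 3 and 4 were high, the order of S100a9 and Chi3l1. Cacnb4, a beta subunit of voltage-gated calcium channels, had -1.59, 1.42, 0.19 and 1.64 log2 CPM, from 4, 43, 17 and 47 reads. Csmd2, a large membrane protein with complement-control domains, had -0.86, 1.29, 1.66 and 0.62, from 7, 39, 48 and 23 reads. Both were low in replicate 1, on few reads.

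In a group of 7 members placed under matrix and secreted proteins after the values were seen, replicate 1 was the highest animal for 7 of the 7. This held for 27.7% of coding genes. Replicate 2 was the lowest for 5 of the group (31.6%). Secreted proteins placed in other groups had other highest animals. These were replicate 4 for Chi3l1 and Nptx2, replicate 3 for Lrg1, Retnlg and Nptx1, and replicate 2 for Rbp4. Besides Mmp9 and Hhip, Abi3bp, a matrix protein, had 3.69, 0.76, 3.22 and 3.39 log2 CPM, with replicate 2 alone low. Mamdc2, a secreted protein of the MAM domain family, had 5.05, 2.72, 3.53 and 4.32. Pappa2, a metalloproteinase that cleaves binding proteins of insulin-like growth factors and is made in the kidney by cells at the macula densa, had 2.06, -1.32, 0.10 and 0.50, from 56, 6, 16 and 21 reads. The 2 whose lowest animal was replicate 3 were Egfl6 and Olfml1. Egfl6, an EGF-repeat protein of basement membranes, had 3.54, 1.39, 0.99 and 1.96 log2 CPM. Olfml1, an olfactomedin-like secreted protein, had 5.59, 5.09, 2.94 and 4.63 (652, 552, 117 and 377 reads).

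Members tied to metals and metabolism split in opposite ways. Mt1, a metallothionein that binds zinc and copper and is induced by metals and glucocorticoids, had 2.69, 5.33, 4.77 and 4.31 log2 CPM, from 87, 651, 417 and 302 reads. Replicate 1 was low and the other 3 were high. Its paralog Mt2A, no member, had 5.96, 7.82, 6.97 and 6.97 (SD 0.76), with the same animals at the top and bottom. A coding gene listed only as AC128848.1 had 4.60, 7.20, 6.63 and 6.42 log2 CPM (329, 2378, 1520 and 1302 reads), in the same order of animals as Mt1. Mt1 and Mt2A are similar in sequence, so how reads were divided between the 2 is uncertain. The identity of AC128848.1 was not examined. In the fixed glucocorticoid-induced list, which holds Mt1 and Mt2A, the median deviations over 15 genes were -0.26, 0.24, 0.04 and -0.04. Mt1 was its only member, and its most uneven gene, Zbtb16, is left out here by name. Its least uneven gene, Ddit4, an inhibitor of mTOR signalling, had 5.24, 5.40, 5.50 and 5.29 log2 CPM.

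The promoters of both metallothionein genes are shown because they carry several copies of the core of the metal response element, the site through which this gene family answers to zinc. They are RefSeq sequences of build GRCr8, matched by symbol, from 250 bases before to 50 bases after the gene start, 5′ to 3′ on the strand of the gene. Capitals mark every match to TGCGCNC or TGCACNC on either strand, 6 in Mt1 and 4 in Mt2A; the motif was chosen after the members were known.
Mt1, chr19:10832926-10833225, minus strand: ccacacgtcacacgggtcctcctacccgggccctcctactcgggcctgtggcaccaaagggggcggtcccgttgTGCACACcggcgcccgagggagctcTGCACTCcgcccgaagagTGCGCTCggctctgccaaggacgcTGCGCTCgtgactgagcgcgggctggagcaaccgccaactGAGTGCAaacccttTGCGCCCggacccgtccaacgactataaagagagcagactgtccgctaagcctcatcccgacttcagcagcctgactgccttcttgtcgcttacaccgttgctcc
Mt2A, chr19:10838659-10838958, minus strand: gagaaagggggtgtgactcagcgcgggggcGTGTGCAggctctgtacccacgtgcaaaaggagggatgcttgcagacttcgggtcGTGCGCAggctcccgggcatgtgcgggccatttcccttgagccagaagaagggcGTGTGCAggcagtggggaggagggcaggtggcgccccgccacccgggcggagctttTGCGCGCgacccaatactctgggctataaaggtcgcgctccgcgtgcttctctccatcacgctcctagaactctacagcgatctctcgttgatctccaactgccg

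A promoter was at hand for 37 of the 54 members. A match to this motif was found in 13 of the 37, or 35.1%, and in 24.2% of all 33469 promoters of the same length, so a match by itself does not set Mt1 apart. Of the other motifs searched on both strands, the interferon response core GAAANNGAA was found in 3 of 37 members (Abi3bp, Clec4d and Csf3r) and in 9.71% of all promoters, and the half-site TGTTCT of the glucocorticoid receptor in 5 and in 20.7%. TGANTCA (AP-1) was found in 2 members and 7.33% of promoters, CACGTG (E-box) in 2 and 6.42%, and TTATGTAA (D-box) in 1 and 0.893%. TGACGTCA (CRE), GTTAATNAT (HNF1) and CAAAGTCCA (HNF4) were found in 0 of the 37 and in 1.83%, 0.747% and 0.391% of promoters. Motifs of leukocyte genes were also chosen after the members were known: ATTTGCAT (octamer) and GAGGAAGT (PU.1) were each found in 1 member, neither a B lymphocyte gene, and in 1.78% and 2.42% of promoters. TTGCNNAA (C/EBP) was found in 3 members (Rbp4, Spib and Synpr) and in 10.6% of promoters. The promoters of S100a9, Csf3r, Retnlg and Clec4d held no match to it.

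Depp1, a regulator of autophagy controlled by FOXO factors, had 5.62, 5.50, 7.76 and 6.87 log2 CPM (666, 734, 3322 and 1785 reads), with replicates 3 and 4 high. Abca8a, a transporter of the lipid-exporting ABC family, was low in replicate 1, at 1.65 against 3.58 to 3.99 log2 CPM in the others. Acot12, an acetyl-CoA hydrolase of liver and kidney, had 3.04, 2.50, 0.73 and 1.51. Replicates 1 and 2 were high. Rbp4, the plasma carrier of retinol, had 3.38, 3.72, -0.85 and 2.15 log2 CPM, from 141, 213, 8 and 67 reads, and was low in replicate 3 alone.

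The fixed proximal tubule list, with values for 22 of 24 genes, had median deviations of 0.39, 0.13, -0.59 and 0.09 (log2) and a summed level of 19572, 14827, 9112 and 14266 CPM in replicates 1 to 4. It was thus lowest in replicate 3, as were 6 of the 54 members (19.8% of coding genes): Rbp4, Acot12 and Olfml1, and also Synpr, Gpm6a and Egfl6. Gpx3, a secreted glutathione peroxidase, had 12.99, 12.39, 11.75 and 12.49 log2 CPM. Its least uneven gene, Miox, which breaks down myo-inositol, had 8.17, 8.20, 7.82 and 7.91. Its most uneven gene, Kap, is left out here by name, and the list held no member. The part of tubular RNA in the values of Acot12 and Rbp4 was not tested.

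Among membrane and signalling proteins, Dusp15, a dual-specificity phosphatase, had 4.41, -0.16, 2.98 and 2.80 log2 CPM, from 287, 14, 121 and 106 reads. Tmem215, a transmembrane protein, had 1.35, -1.11, 1.77 and 2.54, and Ly6i, of the Ly6 family of lipid-anchored surface proteins, had 2.51, 0.27, 0.42 and 2.19. Gucy2d, a membrane guanylyl cyclase, ranged from -0.63 to 1.73. Replicate 2 was the lowest animal for these 4, as for Mgat5.

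Tmem63c, an ion channel of the osmosensitive TMEM63 family that podocytes are known to express, went against the order of the podocyte list: it had 3.62, 4.85, 1.88 and 1.48 log2 CPM, from 166, 467, 56 and 42 reads, with replicate 2 highest. Hrh1, a histamine receptor, had -0.86, 1.83, 2.16 and 0.50 log2 CPM, from 7, 57, 68 and 21 reads. Cldn6, a claudin of embryonic epithelia, had 0.52, 2.65, 1.75 and 0.28 and was high in replicates 2 and 3. Hrh1 and Cldn6 thus had their upper pair in the 2 animals where Mgat5 and Hhip were low.

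The erythroid list, with values for 7 of 9 genes, held no member. Hba-a1, an alpha globin, had 8.86, 9.15, 9.73 and 9.21 log2 CPM, highest in replicate 3, and Slc4a1, the red cell anion exchanger, had 4.78, 4.59, 5.01 and 5.20. The list's median deviations were -0.36, -0.14, 0.49 and 0.04, and its summed level was 1025, 1273, 1853 and 1309 CPM.

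In RefSeq's gene order on chromosome 1, 2 coding genes separate Mamdc2 and Apba1, which had the same order of animals, and Ptar1 between them had an SD of 0.24 and was highest in replicate 1. By symbol, 48 members were matched to this gene table, on 16 chromosomes.

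Genes known from other tissues were also among the members, at low CPM. Semg1, semenogelin of the seminal vesicle, had 1.58, -2.70, 1.17 and 0.90 log2 CPM, from 40, 2, 34 and 28 reads. Cryga, a gamma crystallin of the lens, had 3.14, 0.19, 2.71 and 0.90, from 119, 18, 100 and 28 reads. Tssk3, a kinase of the testis, had -1.06, 1.85, 1.29 and 1.58, from 6, 58, 37 and 45 reads. Replicate 2 alone was low for Semg1, replicates 2 and 4 were low for Cryga, and replicate 1 alone was low for Tssk3. Cryga belongs to a family of similar genes whose reads may be shared.

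Polr2i encodes a subunit of RNA polymerase II, which all cells need, and had 2.53, 3.55, 3.44 and 0.62 log2 CPM, from 78, 189, 166 and 23 reads. Replicate 4 was low and the other 3 lay higher.

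In all, 6 members carry an identifier in place of a gene name, AC128848.1 among them. RGD1359290 had the highest SD of the 54, 2.17, and formed 2 pairs: it had 6.35, 2.57, 2.61 and 6.34 log2 CPM, so that replicates 1 and 4 were high and nearly equal. LOC108348294 had 4.70, 1.49, 2.92 and 4.33 log2 CPM and the order 1, 4, 3, 2. AABR07060872.1 had 2.16, 2.57, 4.93 and 4.09, and AABR07034739.1 had 0.85, 0.60, 3.11 and 2.01. Both were high in replicates 3 and 4, as were S100a9 and Lrg1. Gm9918 had 1.12, 1.46, -0.69 and -1.76 log2 CPM, from 29, 44, 9 and 4 reads, and was high in replicates 1 and 2.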

How the data were processed

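Polyadenylated RNA of glomeruli from 4 rats of 1 group was measured. Per the submitters' processing notes, HISAT2, featureCounts (Subread) and limma were used with build Rnor_6.0; versions, the use of strand and the filter on low genes are not given in the sources used here. The deposited values are log2 CPM with 0.5 reads added to each count, a form read from the values because no header states it: 100% of values gave whole reads (within 0.00071). Of 13265 rows, 4 had displaced cells and were dropped. Columns of values without a sample numbered 0.

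Python 3.11.15, numpy 2.4.6 and pandas 2.3.3 were used. SDs, splits at the widest gap and medians of lists of at least 4 measured genes were computed from the deposited log2 values. Reading of counts and splits were checked on simulated data. No difference was tested, since the members were chosen by the same values; Dixon's ratio was used only to list values far from the rest. The members and lists were chosen with earlier results of these data known, and the grouping by cell of origin was made after the values were seen. In each set of high animals up to 8 members, ordered by SD, were named with values in each sample; of the lists, the highest, lowest, most and least uneven genes could be named. Mmp9, Csf3r, Mamdc2, Abca8a, Mt2A, Cyp4a2, Lcn2, Fos, Col3a1 and the genes neighbouring members were added after their values were seen. So were Mylk, the other fibroblast genes and the macrophage and dendritic genes besides Lyz2 and Cd68. Some genes, 3 members among them, are not reported here, though counts and list values include them. Promoters and gene order are from RefSeq, build GRCr8, matched by symbol. The alternatives were other scalings, a pseudocount of 1, a level filter, the range in place of the SD, high defined by the mean, and each animal left out.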

Additional observations from a re-analysis of the deposited data

Results flagged for a closer look

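Of 72 results examined (51 members and 21 lists), 4 held 1 animal far from the rest: its gap to the nearest other value, divided by the whole range (Dixon's ratio), was above the 95% critical value for 4 values. Chance gives this in about 1 in 20 groups that were not selected on their values. That rate does not hold for the members, which were chosen for a wide spread of the same 4 values, so their ratios are descriptions and no test. Nptx1 was set apart by the low value of replicate 2 (0.939), at 269 reads against 1508 to 1859. Semg1 (0.842) and Abi3bp (0.840) were set apart by replicate 2 as well, at 2 and 27 reads. Among lists, the renin and smooth muscle list was set apart by replicate 1 (0.946), with a median deviation of -0.22 against 0.11, 0.11 and 0.12 (log2) over 5 measured genes. The summed level of this list went the other way, at 881, 743, 815 and 870 CPM. Its gene with the highest CPM, Mylk, was also highest in replicate 1. The cause was not tested for any of these.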

How the results depend on the processing

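Of 116 recomputed values, 99 stayed within their criterion (counts within 1.5 times, list medians within the SD over animals) and 17 moved. No paired analysis was possible because there is a single group. With trimmed-mean and with median-of-ratios factors 56 genes passed the SD limit, and with mitochondrial genes out of the total 49; that last scaling raised the median of coding genes by 0.11 to 0.19 (log2). On the log2(CPM + 1) scale, which shrinks low values, 27 passed. A mean of at least 1 log2 CPM left 43, and a range above 2 in place of the SD gave 80. Over 3 animals the count ran from 38 without replicate 1 to 82 without replicate 4. Of the 54 members, an alternative added after the data were seen kept 32, 39, 42 and 50 above the limit without replicates 1, 2, 3 and 4, with the fewest kept without replicate 1; 11 stayed above in each of the 4. The sets of high animals depend on how high is defined. With high meaning above the gene's mean, the members high in replicates 1, 3 and 4 were 7 (also 7 on the log2(CPM + 1) scale), in 2, 3 and 4 were 4, in 1 and 4 were 13, in 3 and 4 were 13, in 1 alone 1 and in 3 alone 1. The shares of coding genes moved likewise, to 6.99%, 9.54%, 16.7%, 12.3%, 4.02% and 4.45% for the same sets, and to 7.25% for 1 and 2. Sets of high animals cannot be recomputed in kind with an animal left out. Under 50 reads, counting error widens the SD, and 16 members lie there.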

Other observations

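Lists of gene programmes that held no member are given as median deviations of a gene from its own mean (log2) in replicates 1 to 4, with the median SD over the list. Immediate early genes, which cells switch on within minutes of a stimulus, had -0.21, -0.06, 0.23 and 0.22 over 15 genes (SD 0.35). Fos, an AP-1 subunit and the most uneven of them, ranged from 3.77 log2 CPM in replicate 1 to 5.32 in replicate 3. Fatty acid and PPAR target genes had 0.15, 0.23, -0.39 and -0.03 over 13 genes (SD 0.38), the same upper animals as the member Acot12. Cyp4a2, a fatty acid hydroxylase of this list, had 9.85, 10.00, 8.86 and 8.67 log2 CPM. Injured tubule genes had -0.27, 0.28, -0.01 and -0.05 over 7 genes (SD 0.37), and Lcn2, a siderophore-binding protein that neutrophils also hold, had 3.65, 4.87, 3.02 and 3.33 log2 CPM, highest in replicate 2 and not in replicates 3 and 4.

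The next 2 lists hold no member only because Ifit1 and Sele, their most uneven genes, are left out by name. Interferon-induced genes had 0.21, -0.17, -0.24 and 0.26 over 19 genes (SD 0.28), endothelial activation genes -0.31, -0.45, -0.02 and 0.90 over 4 genes (SD 0.64), and fibroblast genes -0.29, 0.22, 0.36 and -0.12 over 4 genes (SD 0.39). The fibrillar collagen gene Col3a1 in the last list had 4.95, 6.55, 7.26 and 6.50 log2 CPM, lowest in replicate 1, with an SD of 0.97. Col1a1 of the same list had 8.81, 8.09, 9.01 and 8.31, lowest in replicate 2. Pdgfra was lowest in replicate 1 and Pi16 in replicate 4. The summed level of the fibroblast list, 566, 477, 782 and 485 CPM, was lowest in replicate 2. The remaining lists had a median SD between 0.23 and 0.36: parietal epithelial, distal nephron, circadian, heat shock, cell cycle and MHC class II genes. None of the urothelial, adipocyte and adrenal cortex genes had a value in the table used here.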
